A study of Mus musculus with 4 samples.

Results

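The cells described here are tumour CD8 T cells whose transcripts fit the gate used for stem-like progenitor exhausted cells: 152 cells, 49 in the CD137 minus library and 103 in the CD137 plus library, of 6965 cells in the series and 3998 tumour cells with a Cd8a or Cd8b1 value. A cell was taken when it had a value for Pdcd1 (PD-1) and for Tcf7 or Slamf6, no value for Havcr2 (TIM-3), Gzmk, Klrg1 or Tnfrsf4, and values for fewer than 2 of the 3 cycling genes Mki67, Top2a and Birc5. The members were thus chosen on measured transcripts, and every comparison of them with other cells is a description of how that choice divides the cells.

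The mice were C57BL/6 recipients, lethally irradiated with 8 Gray and given bone marrow of a Cd4cre Cd137 fl/fl ROSA26tomato donor together with that of a Cd137 fl/fl ROSA26tomato donor, so all recipients held cells of both donors, and both donors carried the floxed allele and the reporter. Each bore a subcutaneous B16K1 melanoma, of the B16 mouse melanoma family, and cells were taken at day 21 after inoculation. Bead-isolated CD8 T cells were sorted by the reporter into CD137 minus (Cre donor) and CD137 plus (no Cre), and the cells of 7 mice were hashtagged and pooled, which gave 1 library for each fraction of tumour and of spleen. The table assigns no cell to a mouse, so a group is 1 sample, no difference between the libraries has a replicate check, and no test was run. The labels disagree on which fraction was tomato positive, and groups follow the CD137 status on which they agree. CD137 loss and Cre come from the same donor and cannot be told apart, and Cd4-Cre acts in T cells before they leave the thymus.

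Chronic stimulation by antigen drives CD8 T cells into exhaustion, in which inhibitory receptors such as PD-1 stay on. Within exhausted populations a progenitor pool keeps the transcription factor TCF1 (Tcf7) and the surface receptor SLAMF6, divides slowly and feeds TIM-3 positive descendants that carry cytotoxic molecules. TCF1 is also high in naive and memory T cells, so PD-1 is the marker that separates progenitors from those. CD137 (4-1BB, Tnfrsf9) is a costimulatory receptor of the TNF receptor family that activated T cells put on their surface and that signals through TRAF adaptors to NF-kB.

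Levels are corrected counts summed over a group of cells and scaled to 1000000 (CPM). A cell has a value for a gene when its corrected count is above 0. A pair of levels such as minus/plus, or of values joined by "and", gives the CD137 minus library first and the CD137 plus library second. Corrected totals per cell spanned 3632 to 5712 in the tumour minus library and 2949 to 4588 in the plus library, and 1 cell barcode occurred in both. In the gate 1 corrected count was worth 4.58 CPM in the minus library and 2.71 CPM in the plus library. Intervals on shares of cells are exact Clopper-Pearson 95% intervals and cover counting error only. Counting intervals on ratios of levels are exact binomial 95% intervals on the summed corrected counts. They treat each count as independent, although a cell can hold several counts of a gene. Fewer genes were detected per gated cell (medians 1300 and 1161) than per other PD-1 positive CD8 cell (1795 and 1546). The median mitochondrial share was higher (2.96% and 1.92% against 1.70% and 1.23%). The part of either in the differences below was not tested. A class with a like number of genes is given below, but its mitochondrial share (2.11% and 1.47%) was also lower than that of the gate.

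The gate took a small and fairly equal part of the CD8 cells of both tumour libraries. It held 3.92% (49 of 1251, interval 2.91 to 5.15%) of CD8 cells in the minus library and 3.75% (103 of 2747, interval 3.07 to 4.53%) in the plus library. In spleen, where PD-1 is rare, 20 of 2444 CD8 cells (0.818%) and 3 of 469 (0.640%) passed it. Cells were also thinned to a common 2900 corrected counts and gated again, and 1223 and 2726 tumour cells then still had a Cd8a or Cd8b1 value. The tumour shares were 3.60% and 3.45% and the spleen shares 0.581% and 0.431%.

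As a share of PD-1 positive CD8 cells the gated cells were more frequent in the minus library, at 9.55% (49 of 513, interval 7.15 to 12.4%) against 6.76% (103 of 1524, interval 5.55 to 8.14%). The intervals overlapped. That denominator itself differed: Pdcd1 had a value in 41.0% of CD8 cells of the minus library and 55.5% of the plus library. Before the exclusions, Tcf7 or Slamf6 had a value in 25.3% (21.6 to 29.3%) of PD-1 positive CD8 cells of the minus library. In the plus library the share was 16.7% (14.9 to 18.7%), and these intervals did not overlap. This share was not repeated after thinning. The median corrected total per cell was 4833.5 in the minus library and 3701.5 in the plus library, and its part in the share was not tested.

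Tnfrsf4 (OX40) and Gzmk, a granzyme of effector memory cells, did most of the excluding. Of 385 PD-1 positive CD8 cells with Tcf7 or Slamf6, 112 were kept out by Tnfrsf4 alone (37 of them at 1 corrected count), 51 by Gzmk alone (16 at 1), 13 by Havcr2 alone (9 at 1), 5 by the cycling criterion alone and 2 by Klrg1 alone. On the inner side of the thresholds, 76 of the 152 cells had Pdcd1 at exactly 1 corrected count. Tcf7 had a value in 105 cells, 47 of them at 1 count, and Slamf6 in 66 cells, 39 at 1 count. Most members therefore entered on a single marker: 23 and 63 cells had Tcf7 only, 19 and 28 had Slamf6 only, and 7 and 12 had both. Among all PD-1 positive tumour CD8 cells the markers did occur together, since Slamf6 had a value in 25.3% and 21.1% of cells with Tcf7 and in 11.8% and 6.55% of cells without it.

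Lef1, Ccr7, Klf2 and Id3, genes of naive and memory T cells, placed the gated cells between their PD-1 negative counterparts and the rest of the PD-1 positive cells. The counterparts are 315 and 360 CD8 cells that met every other criterion of the gate but had no Pdcd1 value; the rest are 464 and 1421 PD-1 positive CD8 cells outside the gate. Lef1, the transcription factor that acts beside TCF1, was at 314/309 CPM in the counterparts, 234/160.0 CPM in the gate and 46.2/29.9 CPM in the other PD-1 positive cells. It was lower still, at 18.9/17.9 CPM, in the 96 and 287 PD-1 positive cells with TIM-3, in the same order in both libraries. Ccr7, the lymph node homing chemokine receptor, followed the same steps at 894/895, 586/537 and 339/301 CPM. Klf2, which keeps T cells quiescent and circulating, was at 2602/2985, 1241/906 and 397/309.8 CPM. Id3, an inhibitor of E proteins kept by memory and progenitor cells, was at 204/233, 137/67.8 and 31.1/21.9 CPM.

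Not all genes linked to naive or memory T cells stepped down from the counterparts to the gate. Satb1, a chromatin organiser of naive T cells, was at 177/155 CPM there, 188/176 CPM in the gate and 44.9/31.4 CPM in the other PD-1 positive cells. Il7r, the survival receptor for interleukin 7, reached 353/141 CPM in the gate, above the counterparts (234/263 CPM) in the minus library but below them in the plus library. Myb, a factor needed for stem-like exhausted cells, was low everywhere but stood at 36.6/32.6 CPM in the gate against 13.8/8.61 CPM in the other PD-1 positive cells. Bcl2, which protects from apoptosis, was at 215/155 CPM against 106/89.3 CPM.

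**Figure D1:**
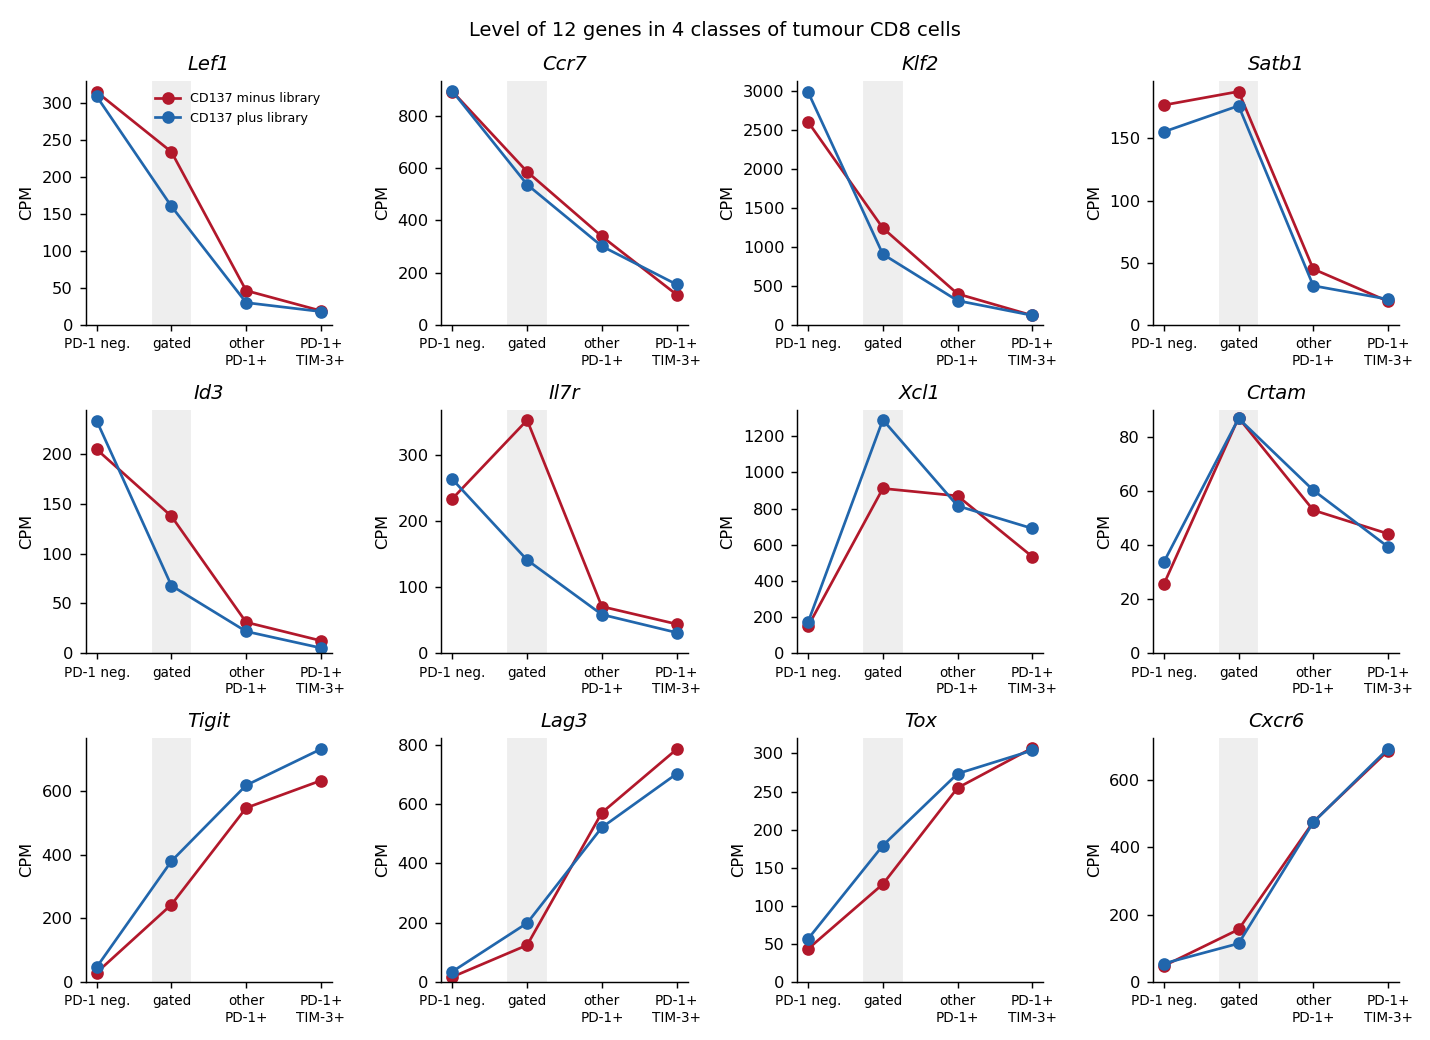
Level of 12 genes (CPM, linear axes that start at 0) in 4 classes of tumour CD8 cells, red for the CD137 minus and blue for the CD137 plus library, with the gated cells on grey. Lef1, Ccr7, Klf2 and Id3 step down from left to right, Tigit, Lag3, Tox and Cxcr6 step up, and Xcl1 and Crtam peak in the gate.

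Exhaustion genes were intermediate from the other side. Lag3, an inhibitory receptor for MHC class II, was at 16.4/34.4 CPM in the PD-1 negative counterparts, 124/198 CPM in the gate and 571/521 CPM in the other PD-1 positive cells. Tigit, another inhibitory receptor, was at 28.8/46.2, 243/379.8 and 547/619 CPM. Tox, the factor that sets up the exhausted state, was at 43.2/56.4, 128/179 and 255/273 CPM. These orders held in both libraries.

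Molecules of the terminal state were low in the gate. Cxcr6, a chemokine receptor of tissue-resident and late exhausted cells, was at 156/114 CPM against 476/475 CPM in the other PD-1 positive cells. Prf1 (perforin) was at 36.6/38.0 CPM, close to the 24.2/40.3 CPM of the counterparts, against 207/217 CPM. Entpd1 (CD39) had 1 and 3 corrected counts in all gated cells, and its level in the other PD-1 positive cells was 10.4 times higher (counting interval 1.82 to 414) in the minus library and 6.42 times higher (2.17 to 31.3) in the plus library. Nr4a2, induced by T cell receptor signals, differed less and was at 673/1025 CPM against 1317/1407 CPM, and at 161/191 CPM in the counterparts.

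A few genes were highest in the gate. Xcl1, the ligand by which T cells attract cross-presenting dendritic cells, was at 912/1291 CPM in the gate, 870.4/815 CPM in the other PD-1 positive cells, 534/690.3 CPM in those with TIM-3 and 150.0/173 CPM in the PD-1 negative counterparts. The share of cells with Xcl1 did not set the gate apart from the other PD-1 positive cells, at 51.0% (25 of 49, interval 36.3 to 65.6%) against 51.5% in the minus library and 41.7% (43 of 103, interval 32.1 to 51.9%) against 39.3% in the plus library. Crtam, an adhesion receptor of activated CD8 cells, was at 87.0/86.8 CPM in the gate against 52.9/60.3 and 25.6/33.7 CPM in the neighbouring classes. Tnfsf11 (RANKL), a TNF family ligand, was at 101/97.7 CPM against 71.1/81.2 CPM in other PD-1 positive cells and 4.59 and 11 CPM in the counterparts. The gate stood above both neighbours in both libraries for all 3 genes, though for Xcl1 in the minus library by little. With Tcf7 required of every gated cell, the mean log2 ratio against all other CD8 cells went from 0.96 to 0.13 for Xcl1 and from 0.88 to -0.11 for Crtam. Cxcr5, a chemokine receptor used to mark progenitors in chronic viral infection, was near the level of 1 count in the gate (4.58/2.71 CPM) and no higher there than in the PD-1 negative counterparts (5.90/6.60 CPM), so it gives the label no support at this depth. The label progenitor is part of the selection rule as far as Tcf7 and Slamf6 go, and the members are called gated cells.

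A class with the same exclusions and a like number of genes per cell showed the same direction for Lef1, Ccr7 and Il7r. It was itself chosen by the lack of Tcf7 and Slamf6, so it cannot show the part of gene number alone. Its members, 132 and 435 PD-1 positive CD8 cells, passed every exclusion but had neither Tcf7 nor Slamf6. They had medians of 1264 and 1142 genes per cell. Lef1 was at 119/46.4 CPM in them, below the 234/160.0 CPM of the gate. Ccr7 was at 402/189 CPM against 586/537 CPM, and Il7r at 125/75.4 CPM against 353/141 CPM. Lag3, at 429/467 CPM, and Cxcr6, at 400.1/442 CPM, were higher in them than in the gate (124/198 and 156/114 CPM). For Lef1 and Il7r the ratio to the gate was smaller than against all other PD-1 positive cells in both libraries, and for Ccr7 it was smaller in the minus and larger in the plus library. Klf2 in the minus library was nearly level, at 1061 CPM against 1241 CPM. Aff3, a nuclear elongation factor family member, was at 36.6/40.7 CPM in the gate against 3.39/1.93 CPM in this class.

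Across genes, a gene counted as measured in a comparison of 2 classes when it reached 20 CPM and 5% of cells in at least 1 class of each library and had a value in both classes. It counted as higher or lower when the log2 ratio (1 CPM added to both levels) was 0.5 or more in size in the same direction in both libraries. The genes of the gate are left out of all counts. Against all other tumour CD8 cells, 355 of 5154 measured genes were higher in the gate (6.89%) and 232 lower (4.5%), while 178 (3.45%) went past the limit in opposite directions in the 2 libraries; relative to the median ratio the shares were 6.87% and 4.79%. The other CD8 cells include both PD-1 negative and PD-1 positive cells.

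Against other PD-1 positive cells the median log2 ratio over genes was -0.18 in the minus and -0.15 in the plus library, and against the PD-1 negative counterparts it was 0.36 and 0.19. Counts and medians for these comparisons are therefore given relative to those medians. Relative to them, 516 of 5524 genes (9.34%) were higher and 454 (8.22%) lower than in other PD-1 positive cells, and 562 of 4870 (11.5%) were higher and 453 (9.3%) lower than in the counterparts. Another 178 genes (3.22%) were past the limit in opposite directions against other PD-1 positive cells. Without that centring the splits were 306 (5.54%) higher and 721 (13.1%) lower, and 1022 (21%) higher and 183 (3.76%) lower.

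The naive and terminal exhaustion lists gave the in-between position in counts. Of 13 measured naive genes, 12 were higher in the gate than in other PD-1 positive cells (among them Ccr7, Lef1, S1pr1, Klf2, Satb1, Il7r, Foxp1 and Txk), with list medians of 1.40 and 1.70 on the log2 scale. Against the PD-1 negative counterparts 7 of the same 13 were lower (among them Ccr7, Lef1, Klf2, Dapl1, Igfbp4 and Klf3) and none higher, with medians of -1.24 and -0.93. Of the terminal exhaustion list, 11 of 14 measured genes were lower than in other PD-1 positive cells (among them Entpd1, Gzmb, Prf1, Lag3, Id2, Tigit, Cxcr6 and Rgs16; medians -1.01 and -1.25). Against the counterparts 10 of 11 were higher (medians 1.70 and 1.45), among them Lag3, Tigit, Tox, Nr4a2, Id2, Cd160 and Rgs16. The memory list had no single direction. Of its 13 measured genes, 3 were higher than in other PD-1 positive cells (Il7r, Ly6c2 and Bcl2) and 2 lower (Ccl5 and Il2rb), with medians of 0.08 and 0.07. Against the counterparts 5 were higher (Il2rb, Itgb1, Ly6a, Il18r1 and Fasl) and 1 lower (Ly6c2), with medians of 0.64 and 0.20.

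Of 13 measured stemness factors, 9 were higher than in other PD-1 positive cells (Lef1, Id3, Myb, Foxp1, Klf2, Klf3, Satb1, Zeb1 and Pou2f2). In the separate comparison with all other CD8 cells, Zeb1 was at -0.37 when at least 2 Pdcd1 counts were required of every gated cell. Against the counterparts 2 of the 13 were higher (Nfatc1 and Ikzf2) and 4 lower (Lef1, Id3, Klf2 and Klf3), with medians of -0.27 and 0.22. Of 15 measured progenitor genes, 8 were higher (among them Id3, Il7r, Lef1, Myb, Tnfsf8, Ccr7 and Crtam) and none lower. Several of those 8 are also naive genes, Lef1, Il7r and Ccr7 among them. Against the PD-1 negative counterparts Xcl1 and Crtam of this list were higher, while Id3, Lef1 and Ccr7 were among those lower. Against all other CD8 cells, Xcl1, Myb, Tnfsf8 and Crtam were the 4 progenitor genes of 15 that stood higher (Crtam not with Tcf7 required).

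Inhibitory receptors and effector genes lay on the exhausted side of the naive cells and the quiet side of the exhausted ones. Lag3, Tigit, Cd200r1, Klrc1, Cd244a and Pdcd1lg2 were lower than in other PD-1 positive cells, 6 of 11 measured inhibitory genes, and 6 of 9 were higher than in the counterparts (Ctla4, Lag3, Tigit, Cd160, Klrc1 and Pdcd1lg2). Of 12 measured effector genes, 8 were lower than in other PD-1 positive cells, among them Tbx21, the factor of effector differentiation, at 82.5/111 against 145/175 CPM. All 9 measured effector genes were higher than in the counterparts, among them S100a4, a calcium-binding protein of activated cells, at 435/363 against 37.3/79.9 CPM.

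Among cytokines and chemokines, 7 of 12 measured genes were lower than in other PD-1 positive cells (Ifng, Ccl3, Ccl4, Ccl5, Ccl1, Csf1 and Penk). Ccl3 and Ccl4, chemokines of activated T cells, were at 96.2/81.4 and 224/157 CPM in the gate against 326/599 and 458/872 CPM. Xcl1 was not among the lower genes, and it was not past the limit on the higher side either. Lta, a lymphotoxin, was the 1 cytokine gene that was higher, at 77.9/38.0 against 26.2/28.3 CPM. Against the PD-1 negative counterparts 2 of 8 measured genes of this list were higher (Xcl1 and Lta) and 0 lower. The list as a whole was thus not shown to lie between the neighbours.

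Cytokine receptors differed in both directions. Il6ra and Il6st, the 2 chains of the interleukin 6 receptor, were at 77.9/73.2 and 41.2/35.3 CPM in the gate against 14.2/6.55 and 15.1/13.5 CPM in other PD-1 positive cells. Both were close to the PD-1 negative counterparts, at 74.0/81.4 and 33.4/29.3 CPM. Il12rb2, a chain of the interleukin 12 receptor, was at 32.1/24.4 CPM, above both neighbours (11.1/16.3 and 5.90/8.80 CPM). Il2rb, the shared chain for interleukins 2 and 15, lay between them at 86.5/128, 275/277 and 471/511 CPM.

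Metabolic genes differed little once the median shift was taken into account. None of 15 measured genes of oxidative phosphorylation was past the limit against either neighbour. In glycolysis, 3 of 13 measured genes were lower than in other PD-1 positive cells (Slc2a1, Tpi1 and Eno1) and 2 of 12 higher than in the counterparts (Tpi1 and Pgam1); without the centring the latter count was 10 of 12. Of 20 measured NF-kB genes, 4 were higher than in other PD-1 positive cells (Nfkb1, Nfkbiz, Tnfaip3 and Traf3) and 6 than in the counterparts. Of 12 measured proliferation genes, 5 (Mcm3, Mcm6, Tyms, Rrm2 and Stmn1) were lower than in other PD-1 positive cells, in part by construction, since the gate leaves out cycling cells. Heat shock and dissociation stress genes, signs of handling, moved with the classes as well: 3 of 14 (Hspa1b, Fos and Jun) were higher in the gate than in other PD-1 positive cells and 5 (Hspa1a, Hspa1b, Dnajb1, Hspe1 and Jun) lower than in the counterparts, and their part in the other differences was not tested.

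**Figure D2:**
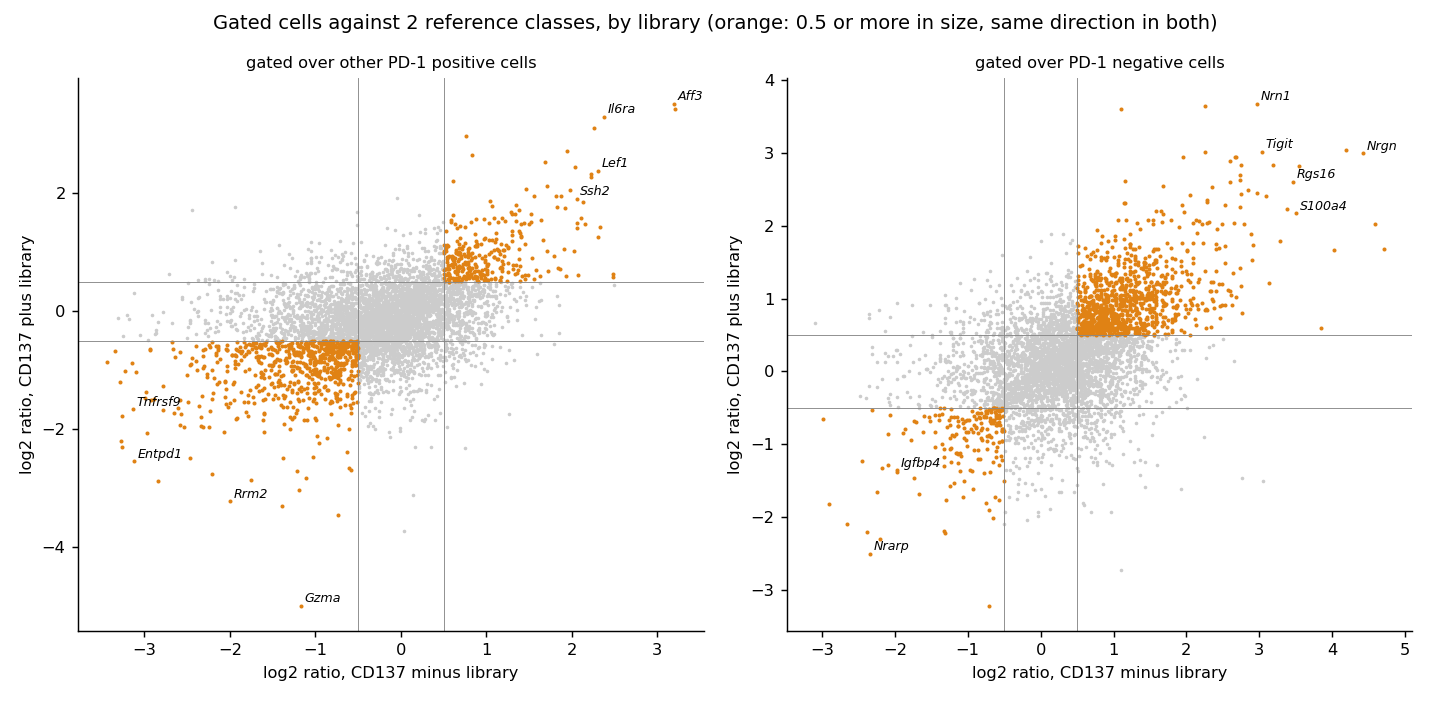
Log2 ratio of gated cells over other PD-1 positive cells (left) and over PD-1 negative counterparts (right), minus library on the x axis and plus library on the y axis, 1 point per measured gene. Orange points are 0.5 or more in size in the same direction in both libraries, without centring on the median. Some of the furthest named genes are labelled. The median of the cloud on the right lies at 0.36 on the x axis and 0.19 on the y axis.

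The genes furthest above other PD-1 positive cells included Aff3, Tmem108, Il6ra, Rnf144a, Lef1, Cmah, Satb1, Rflnb, Nsg2, Tanc1 and Ssh2. Ssh2, a cofilin phosphatase, was among the more abundant of them, at 431/233 CPM in the gate, 103/61.6 CPM in other PD-1 positive cells and 168/139 CPM in the counterparts, so it was highest in the gate. Cmah, an enzyme of sialic acid synthesis, was at 87.0/86.8 CPM against 17.8/17.0 CPM. The genes furthest below were Gzma, Tff1, Entpd1, Pclaf, Ccl1, Rrm2, Tubb6, Hmgb3, Tk1, Prf1, Tnfrsf9 and Ubxn8, of which Pclaf, Rrm2 and Tk1 serve DNA replication. In the minus library Gzma was 2.38 times higher in other PD-1 positive cells, with a counting interval (0.624 to 20.2) that includes no difference. In the plus library it was 43.2 times higher (7.72 to 1709).

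Furthest above the PD-1 negative counterparts were Nrgn, Tnfsf11, Nrn1, Spp1, Hip1, Plscr1, Rgs16, Tigit, Car2, Ell2, S100a4 and Dusp4. Nrgn (neurogranin), a calmodulin-binding protein, was at 133/141 CPM in the gate and 5.24/16.9 CPM in the counterparts. Nrn1 (neuritin) was at 156/189.9 against 19.0/13.9 CPM. Rgs16, a brake on chemokine receptor signals, was at 394/477 against 34.7/77.7 CPM. All 3 were higher still in other PD-1 positive cells, at 303/257, 339/278 and 655/797 CPM. Furthest below were Nrarp, Ctdsp1, Gzmm, Fcgrt, Prorsd1, Rabl6, Mettl1, Atp1b1, Qsox1, Timm10, Igfbp4 and Rrp9, most of them at a few counts in the gate.

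Against all other CD8 cells the furthest genes were Aff3, Lrig1, Snx19, Zfp26, Eml5, Ptbp2, Tmem131l, Zfp869, Ssh2, Ppp1r12c, N4bp2 and Psme4 on the higher side and Gzma, Ccl1, Entpd1, Ctdsp1, Qsox1, Rabl6, Ubxn8, Hmgb3, Asl, Smpd1, Prf1 and Prorsd1 on the lower side. Apart from Ssh2 and Tmem131l, those on the higher side were sparse in the gate, Aff3 for example at 36.6/40.7 CPM. Gzma, a granzyme, had 2 and 1 corrected counts in all gated cells. The direction of Ccl1 and Psme4 did not hold throughout: the mean log2 ratio of Ccl1 went from -2.31 to 0.32 after thinning, and that of Psme4 from 1.42 to -1.10 with at least 2 Pdcd1 counts.

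The 152 cells were not uniform, and they differed with the amount of Pdcd1 transcript. Cells with 1 Pdcd1 count (28 and 48) had Lef1 at 347/266 CPM, whereas those with 2 or more (21 and 55) had 92.6/66.3 CPM. Klf2 was at 1692/1228 against 679/622 CPM, and Ccr7 at 867/707 against 237/388 CPM. Tox went the other way, at 66.0/116 CPM with 1 count and 206/235 CPM with more. So did Nrn1 (132/69.5 against 185/296 CPM), Ccl4 (66.0/46.3 against 422/255 CPM) and Crtam (41.3/57.9 against 144/112 CPM). Xcl1 was lower with more Pdcd1, at 1040.2/1569.9 against 751/1046 CPM. Each of these directions was the same in both libraries.

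Cells also differed by the marker through which they entered. Cells with Slamf6 but no Tcf7 value had less Lef1 (162/59.7 against 291/193 CPM in those with Tcf7 only) and less Klf2 (706/537 against 1454/1029.9 CPM). Their Xcl1 was higher, at 1770.5/1731 against 421/1316 CPM, a wide gap in the minus library and a narrow one in the plus library. Nkg7, a granule protein, was at 3009/2288 against 1484/1881 CPM, and Ccl4 at 417/358 against 120.3/98.5 CPM. The 7 and 12 cells with both markers had the least Xcl1 of the 3 groups, at 124/179 CPM, and their Lef1 was at 249/223 CPM. A cell without a Tcf7 value may have had the transcript below detection, so these groups are groups by detection, and most hold few cells (7 in the smallest), so the levels are given as values only.

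Counting genes per cell showed the same division. For each cell the number of genes with a value was counted among 15 naive genes and 16 exhaustion genes that exclude the gate genes and Tnfrsf9. Gated cells had medians of 4 and 3 naive genes and 3 and 4 exhaustion genes, other PD-1 positive cells 2 and 1 naive genes with 7 and 6 exhaustion genes, and PD-1 negative counterparts 7 and 6 naive genes with 1 and 2 exhaustion genes. At least 3 genes of both lists were present in 19 of 49 gated cells (38.8%) of the minus library and 33 of 103 (32.0%) of the plus library. That share was 24.1% and 19.8% in other PD-1 positive cells and 23.8% and 22.8% in the counterparts. The remaining gated cells fell on either side: 17 and 26 had 3 or more of the naive list only, and 9 and 41 had 3 or more of the exhaustion list only. The gate thus held cells that carried both programmes at once, cells near the naive pole and cells near the exhausted pole, and the last were more frequent in the plus library (39.8% against 18.4%). That direction was not particular to the gate. The same share was 74.7% against 65.3% in other PD-1 positive cells and 4.17% against 1.59% in the counterparts.

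**Figure D3:**
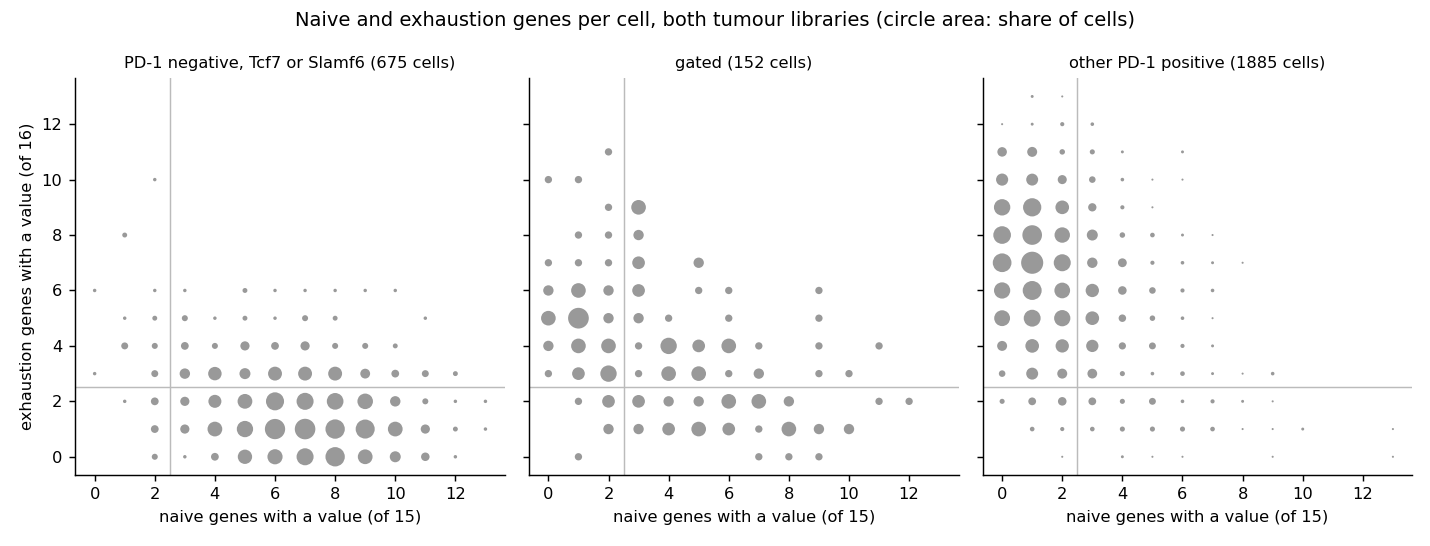
Number of naive genes (x axis, of 15) and exhaustion genes (y axis, of 16) with a value in each cell, circle area in proportion to the share of cells, both tumour libraries together; grey lines mark the threshold of 3 genes. The 675 PD-1 negative cells lie low on the right, the 1885 other PD-1 positive cells high on the left, and the 152 gated cells spread between them.

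Inside the gate, Tnfrsf9 (mm10 chr4:150914562-150946102, plus strand), the deleted gene, checks the labels. It had a value in 6.12% (3 of 49, interval 1.28 to 16.9%) of gated cells of the minus library and in 32.0% (33 of 103, interval 23.2 to 42.0%) of those of the plus library. The level was 13.7 against 203 CPM, 3 against 75 corrected counts, so it was 14.8 times higher in the plus library (counting interval 4.88 to 73.4). After thinning, the shares were 11.4% (3.79 to 24.6%) and 31.9% (22.7 to 42.3%), and these intervals overlapped. Transcripts remained in the minus fraction: in other PD-1 positive cells 36.4% of minus and 66.0% of plus cells had a value, and in the PD-1 negative counterparts 2.22% and 11.9%. Which part of Tnfrsf9 Cre removes, and whether these reads come from it, is not stated in the labels. In the plus library the gene was less frequent in the gate than in other PD-1 positive cells (32.0% against 66.0%).

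**Figure D4:**
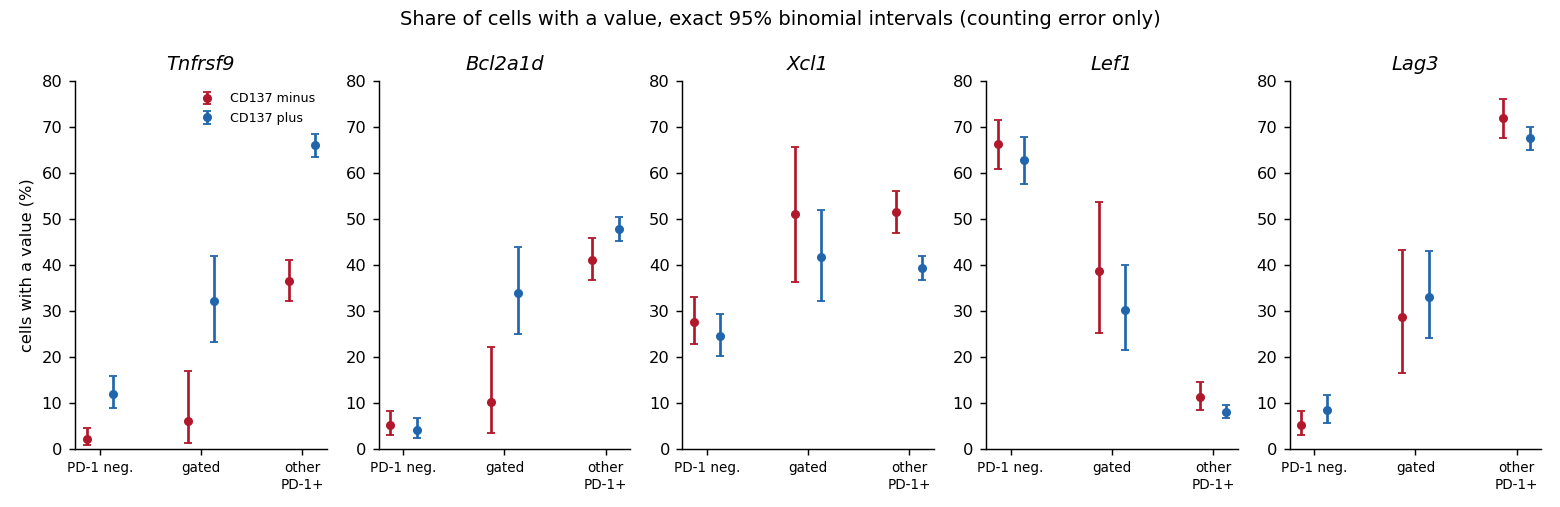
Share of cells with a value for 5 genes (y axis, %) in PD-1 negative counterparts, gated cells and other PD-1 positive cells, red for the CD137 minus and blue for the CD137 plus library, bars for exact 95% intervals. Inside the gate the intervals of Tnfrsf9 and Bcl2a1d do not overlap between the libraries, which they do after thinning, and those of Xcl1, Lef1 and Lag3 overlap.

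The comparison of minus with plus inside the gate rests on few counts. With a minimum of 50 CPM and 10% of gated cells in 1 library, 664 of 3140 measured genes (21.1%) were 0.5 or more higher in the minus library and 596 (19%) lower. The same contrast in other PD-1 positive cells put 2.48% of 3030 genes higher and 1.85% lower, and in the PD-1 negative counterparts 1.54% of 2331 genes higher and 10.1% lower. With a minimum of 100 CPM the shares inside the gate were 17.7% and 14.6% of 1510 genes, and with a minimum of 500 CPM they were 11.6% and 4.1% of 293 genes. Counts of list members inside the gate are read against these shares.

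Bcl2a1d had the most corrected counts (7 and 76) of the 12 genes furthest below 0. It encodes an A1 protein, a survival factor of the BCL2 family that NF-kB induces. Its level was 32.1/206 CPM (log2 ratio -2.65). It had a value in 10.2% (5 of 49, interval 3.40 to 22.2%) of minus cells and 34.0% (35 of 103, interval 24.9 to 44.0%) of plus cells, and after thinning in 9.09% (2.53 to 21.7%) and 26.6% (18.0 to 36.7%), with intervals that overlapped. In other PD-1 positive cells the direction was the same with a smaller size, at 130.3/229 CPM and 41.2% against 47.8% of cells. In the PD-1 negative counterparts it was near level, in 5.08% of minus and 4.17% of plus cells. Bcl2a1d has near-identical copies, Bcl2a1a and Bcl2a1b, between which reads can be divided, so the value of a single copy is uncertain; Bcl2a1a was at 0 in the gate of both libraries. Bcl2a1b pointed the same way, at 169/315 CPM in the gate and 349/401 CPM in other PD-1 positive cells.

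The other genes furthest below 0 were Cxcl10, Ptgds, Kbtbd11, Tank, Idh3a, Exoc3, Traf5, Zbtb38, Rnmt and Ppip5k2, each with 1 or 2 corrected counts in the minus library. The log2 ratio of Ppip5k2 was 0.24 after thinning. Cxcl10, an interferon-induced chemokine, was at 9.16/163 CPM, but 26 of its 60 counts in the plus library came from 1 cell. Ptgds, which is on the melanoma list, was at 4.58/73.2 CPM. Markers of melanoma moved with the library: 1 of 9 such genes had a value in the gate of the minus library (summed level 4.58 CPM) and all 9 in the plus library (190 CPM), against 80.3 and 80.5 CPM in other CD8 cells. A defining marker of another cell type (or Cd4) was present in 1 of 49 and 14 of 103 gated cells (2.04% and 13.6%), and without those cells the log2 ratio of Tnfrsf9 was -4.27, that of Bcl2a1d -2.69 and that of Cxcl10 -4.13. For Ptgds it was -2.86. Lyz2, Foxp3 and Cd4 were at 0 in the gate of both libraries.

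On the higher side the furthest genes were Tmem131, Zmym2, Nup88, Timm8b, Tsc22d1, Lrif1, Spp1, Ust, Lcorl, Ap3d1, Nudt3 and Smad2. Tmem131, a membrane protein, was at 64.1/5.43 CPM, from 14 and 2 corrected counts, a ratio of 11.8 (counting interval 2.71 to 107), and had a value in 18.4% (8.76 to 32.0%) and 1.94% (0.236 to 6.84%) of cells. In other PD-1 positive cells it was level, at 22.2/18.7 CPM. The same held for Zmym2 (15.1/16.1 CPM there) and Timm8b (60.9/57.5 CPM there). Spp1 (osteopontin) was at 243/57.0 CPM, with 41 of its 53 counts in the minus library from 1 cell, and its log2 ratio was -0.29 with Tcf7 required.

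**Figure D5:**
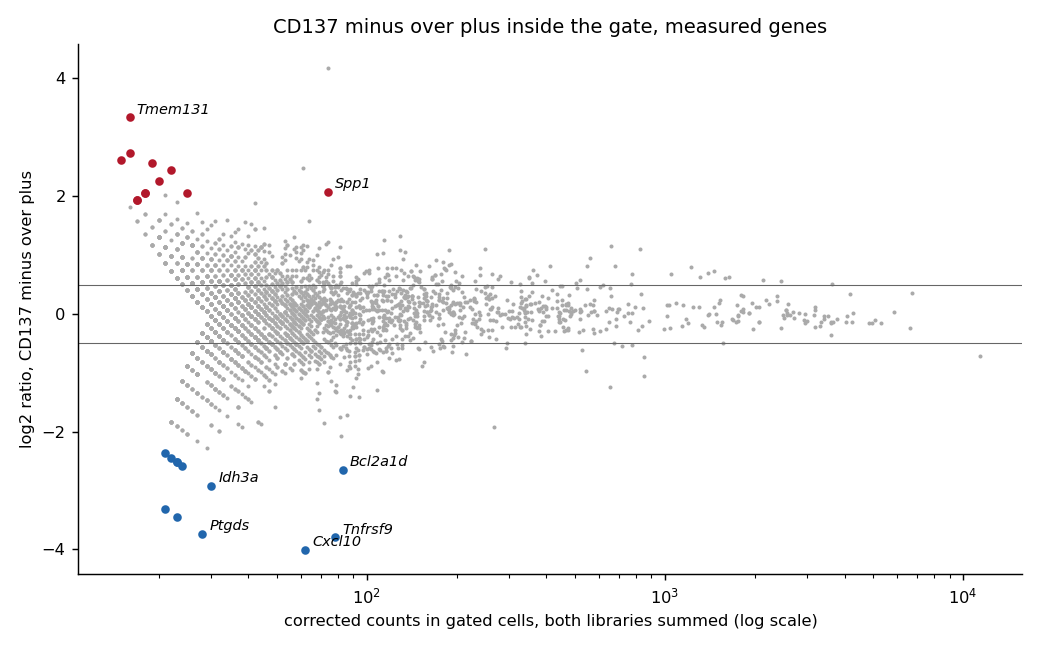
Log2 ratio of CD137 minus over plus among gated cells (y axis) against the corrected counts of both libraries summed (x axis, log scale), 1 grey point per measured gene, with the genes named by the rule in red (higher) and blue (lower). The spread narrows from left to right, and Tnfrsf9 and Bcl2a1d lie below other genes with as many counts.

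The list counts here stand beside background shares of 21.1% higher and 19% lower over all measured genes. The lists hold few genes, so their counts are given as values only. Of 11 measured progenitor genes, Id3, Il7r, Lef1 and Cd28 were higher in the minus library and Xcl1 and Bach2 lower, with a median of 0.43 against 0.27 for the list in other PD-1 positive cells. Il7r was at 353/141 CPM (19 and 30 cells), Id3 at 137/67.8 CPM (13 and 15 cells) and Cd28, the costimulatory receptor, at 421/244 CPM (33 and 50 cells). In other PD-1 positive cells they were at 70.7/58.6, 31.1/21.9 and 317/250.4 CPM. Of 8 measured inhibitory genes, 5 were lower in the minus library (Lag3, Tigit, Klrc1, Cd96 and Cd274) and none higher, with a median of -0.66 against 0.10 in other PD-1 positive cells. Lag3 was at 124/198 CPM and Tigit at 243/379.8 CPM in the gate. After thinning, the log2 ratios of Lag3 and Tigit were -0.09 and -0.29, inside the limit, and that of Lef1 was -0.23; with at least 2 Pdcd1 counts that of Cd96 was 0.27. The difference between the gate and other PD-1 positive cells was not tested.

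Other lists held few measured genes. Of 9 measured BCL2 family and survival genes, 4 (among them Bcl2a1b, Bcl2a1d and Bax) were lower in the minus library and Bak1 and Xiap higher. Isg15, Bst2, Ifi203, Ifi47 and Zbp1, all induced by interferon, were lower and Irf7 higher, of 9 measured; Bst2 was at 0.10 with Tcf7 required and Zbp1 at 0.32 after thinning. None of 8 measured effector genes passed the limit, and none of 9 housekeeping genes. NF-kB genes were split, with 4 of 16 higher (Nfkb1, Rel, Nfkbiz and Icam1) and 4 lower (Tnfaip8, Bcl3, Birc2 and Traf5).

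T cell receptor beta segments were spread over many cells. A Trbv segment had a value in 42 of 49 and 86 of 103 gated cells, the most frequent being Trbv13-2 in 9 of 42 cells of the minus library and Trbv13-1 in 19 of 86 cells of the plus library. Values for 2 or more segments were present in 47.6% (32.0 to 63.6%) and 45.3% (34.6 to 56.5%) of those cells, against 38.4% and 40.2% in other PD-1 positive cells and 39.8% and 39.1% in the counterparts. No doublet caller was run, and the part of doublets in these shares was not tested.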

How the data were processed

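Tumour and spleen CD8 T cells were profiled as 4 droplet libraries, 1 for each group. The tools Cell Ranger 3.0.2 and Seurat 3.0 and the build mm10 are named per the submitters' processing notes, without settings. Values deposited by the authors are natural log values of 1 plus a depth-corrected count, since all 9837473 values above 0 gave whole numbers (tolerance 1e-06) after exponentiation. These were summed over cells and scaled to 1000000 (CPM), and log2 ratios used a pseudocount of 1 CPM. Corrected totals per cell are narrow, so true depth is not known and no count model was fitted.

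Members were found by the gate, and the members and gene lists were chosen with earlier results of these data known. The comparisons with PD-1 negative cells and with at least 2 Pdcd1 counts were added after seeing the data. Genes were named by rule: the 12 furthest above and 12 furthest below 0 among measured genes (in both libraries for the gate), without receptor segments, mitochondrial, ribosomal, sex-linked and clone-named genes, and members of the lists as examples; some genes that these rules name are not reported here. For thinning, each cell was drawn down to 2900 corrected counts and the gate was applied again. No cell was left out for depth, since the lowest total of any cell was 2949 (tumour plus library). Gene positions are those of GENCODE for mm10. Each group is 1 library, so nothing was tested; exact 95% intervals cover counting error only. The code was checked on simulated data. Software versions were pandas 2.3.3, scipy 1.17.1, numpy 2.4.6 and matplotlib 3.10.9 under Python 3.11.15.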

Additional observations from a re-analysis of the deposited data

Results flagged for a closer look

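S1pr1, the receptor by which T cells leave tissue, went in opposite directions in the libraries when gated cells were set against other CD8 cells, with a log2 ratio of -0.523 in the CD137 minus and 1.3 in the CD137 plus library. Dapl1, a gene of naive and memory cells, did the same, at -0.622 and 0.782. The difference between the libraries was not tested for either gene.

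In spleen, which the comparisons do not use, 0.818% of CD8 cells of the CD137 minus library passed the gate. These 20 cells had Lef1 at 274 CPM (65% of cells) and Klf2 at 644 CPM, whereas Xcl1 was at 11.9 CPM and Lag3 at 47.7 CPM. Tnfrsf9 and Rgs16 were listed at 0.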

How the results depend on the processing

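The gated share moved with the gate criteria, and the counts of genes with the size limit and the filter on low values. Of CD8 cells, the gated share was 2.40% (minus) and 2.73% (plus) with Tcf7 required, 0.560% and 0.437% with Tcf7 and Slamf6 both required, and 1.68% and 2.00% with at least 2 Pdcd1 counts. Of PD-1 positive CD8 cells it was 9.55% and 6.76%. Against other CD8 cells (355 genes higher, 232 lower) there were 765 and 419 without a filter, 80 and 20 at a minimum of 100 CPM, and 41 and 40 at a size limit of 1. The lower count was 367 with Tcf7 required, 140 with a pseudocount of 10 and 721 against other PD-1 positive cells. The higher count was 1022 against PD-1 negative cells. Inside the gate (664 and 596) there were 2297 and 2267 without a filter, 267 and 220 at 100 CPM, and 202 and 190 at a size limit of 1. With at least 2 Pdcd1 counts, 1154 were higher. Tnfrsf9 inside the gate ranged from -4.30 (Tcf7 required) to -2.34 (thinned) on the log2 scale.

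Some genes changed direction, and the cause was not tested. For gated against other CD8 cells (mean log2 ratio of both libraries), these were Crtam at -0.11 and Il12rb2 at -0.023 with Tcf7 required, Ccl1 at 0.32 after thinning, Psme4 at -1.10 and Zeb1 at -0.37 with at least 2 Pdcd1 counts, and Gzmm at 0.48 against other PD-1 positive cells. Inside the gate, these were Bst2 at 0.10 and Spp1 at -0.29 with Tcf7 required, Lef1 at -0.23, Ppip5k2 at 0.24 and Zbp1 at 0.32 after thinning, and Cd96 at 0.27, S1pr1 at 0.73 and Zbp1 at 0.63 with at least 2 Pdcd1 counts. After thinning, 35 of 66 named genes of the first comparison and 29 of 53 of the second kept their side of the limit.

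Counts across genes with Tcf7 and Slamf6 both required were not run, since 7 and 12 cells are under the minimum of 20 set after seeing the data for such counts; levels of single genes in groups that small are values only. No paired analysis was possible because each group is 1 library. With 49 and 103 cells, most single genes rest on a few corrected counts.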
